A study of Mus musculus with 12 samples.

Results

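The genes of the extracellular matrix and of the proteins that bind or cut it were followed in the small intestine of male FVB mice during fasting. Members were the probes, other than control spots, whose gene name in the files of the 12 h arrays began with the symbol of a collagen, laminin, nidogen, integrin, matrix metalloprotease, Timp, Adam, Adamts, lysyl oxidase, thrombospondin, fibulin, fibrillin 1 or 2, Sparc or tenascin X gene, or was Fn1, Tnc, Spp1, Vtn, Dcn, Bgn or Lum. These were 115 of the 20280 probes tested, under 79 gene names. At 6 weeks of age the mice were fed or fasted for 12, 24 or 72 h, with 6 mice per time point. The full-thickness small intestine was opened and rinsed, and its RNA was combined into pools of 2 mice. Each of the 12 arrays carried a pool labelled with Cy3 and a reference from 6 fed mice labelled with Cy5, so that n = 3 pools per time point, and dyes were not swapped. For fed replicate 3 the labels name the mice of its own Cy3 pool as the source of the reference and, in the labelling protocol, the 6 fed mice. An infrared lamp warmed the cages from 24 h of fasting on. In whole tissue, fewer cells of a type and less RNA per cell cannot be told apart.

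Values are given as log2(Cy3/Cy5), the level of a pool over the fed reference, and differences from the fed pools are differences of mean log2 ratios with their standard error (SE). A difference is called where the limma p-value, adjusted over all probes by the Benjamini-Hochberg method, is under 0.05. Fed and 72 h arrays came in a common file format, with a median Cy5 signal of 120 to 137. Those of 12 h and 24 h came in another, with a median of 384 to 622, so an effect of 12 or 24 h of fasting against fed cannot be told apart from the format. The reference RNA shows the size of this difference. In the Cy5 channel, 23 of the 115 member probes were called at 12 h (with 21.7% of all probes), 21 at 24 h (with 20.6% of all probes) and 0 at 72 h (limma, with 7 at an unadjusted p under 0.05). Replicate 3 of the 12 h pools stood apart, as it was the highest pool in 11 of the 13 member probes called higher at 12 h. The median SD of member probes was 0.31 at 12 h against 0.17 in the fed pools, and over all probes 0.29 against 0.16. Replicate 1 of the 12 h pools had 1115 spots with outlier flags, against 55 to 263 on the other arrays. In Cy3, the member probes well above background on all arrays of a time point numbered 60 in fed and then 104, 102 and 96 in the order of fasting time. On no fed array did 25 of them reach that level, and where a ratio difference is given for one of these, its size is uncertain.

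The extracellular matrix of the gut has a basement membrane under the epithelium and around smooth muscle, built from laminins, network-forming type IV collagen and nidogens. The connective tissue between them holds fibrillar collagens, fibronectin and proteoglycans. Cells hold on to this matrix through integrins, each a pair of an alpha and a beta chain. Matrix metalloproteases and Adamts enzymes cut matrix proteins, Adam proteins on the cell surface shed membrane proteins, and the Timp proteins inhibit these enzymes. Lysyl oxidases cross-link collagen and elastin.

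The promoters of 4 members are shown because of their calls at 72 h of fasting. Sparc, Col1a2 and Col5a3 had a probe called lower, for Col1a2 only 1 of its 2 probes, and the probes of Timp3 were called higher. Each promoter is the 250 bases before the start of the gene in RefSeq, build GRCm38.p6, read on the strand of the gene. Capitals mark matches, on either strand, to the AP-1 motif TGANTCA, the GC box GGGCGG, the TATA box TATAAA and the SMAD motif CAGACA.
Sparc, chr11:55420081-55420330, minus strand: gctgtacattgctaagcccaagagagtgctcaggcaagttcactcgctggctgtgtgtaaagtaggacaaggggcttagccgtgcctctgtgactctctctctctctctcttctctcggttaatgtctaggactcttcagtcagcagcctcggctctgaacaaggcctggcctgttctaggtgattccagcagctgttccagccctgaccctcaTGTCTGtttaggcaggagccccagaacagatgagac
Col1a2, chr6:4505368-4505617, plus strand: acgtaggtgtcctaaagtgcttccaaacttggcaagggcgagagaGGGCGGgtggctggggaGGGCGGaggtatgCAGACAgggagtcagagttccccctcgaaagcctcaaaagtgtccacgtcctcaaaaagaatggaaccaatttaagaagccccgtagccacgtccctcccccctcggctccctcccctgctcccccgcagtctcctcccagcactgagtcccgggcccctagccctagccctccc
Col5a3, chr9:20815068-20815317, minus strand: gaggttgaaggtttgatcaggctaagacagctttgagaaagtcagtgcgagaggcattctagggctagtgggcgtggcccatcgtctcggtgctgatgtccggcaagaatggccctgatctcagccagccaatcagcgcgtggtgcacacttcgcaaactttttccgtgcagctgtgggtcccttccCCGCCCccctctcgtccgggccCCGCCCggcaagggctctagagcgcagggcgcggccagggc
Timp3, chr10:86300162-86300411, plus strand: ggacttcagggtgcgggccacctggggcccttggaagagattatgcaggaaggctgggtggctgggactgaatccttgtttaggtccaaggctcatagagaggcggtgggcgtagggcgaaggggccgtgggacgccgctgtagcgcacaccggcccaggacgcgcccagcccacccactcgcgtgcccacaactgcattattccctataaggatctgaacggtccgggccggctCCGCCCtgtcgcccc
The GC box matched 2 times in Col1a2, 2 times in Col5a3 and 1 time in Timp3, and 32.7% of the 32851 promoters of this length hold it. The SMAD motif matched 1 time in Sparc and 1 time in Col1a2, and 17.1% of promoters hold it. The AP-1 motif and the TATA box, held by 6.75% and 12.4% of promoters, had no match in these windows.

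At 72 h, when fed and fasted arrays share a format, the member genes moved both ways. Probes of Col5a3, Col1a2, Col14a1, Col18a1, Fn1 and Sparc made up the falls. Timp genes, the integrin beta 7 chain and tenascin C were among the rises. Of the 115 member probes 16 (13.9%) were called, against 10.6% of all probes. Of these, 10 were higher (4.85% of all probes were called higher) and 6 lower (5.71% of all probes were called lower). With each array centred on its median instead, 15 were called, 6 higher and 9 lower. The median difference of the members was 0.01, as it was over all probes, and single members ranged from -1.66 to 2.56.

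Among the 7 probes of fibrillar collagens, which form the tension-bearing fibres of connective tissue, 2 fell at 72 h and none rose. Col5a3, a chain of the minor fibrillar collagen V, had log2 ratios of 0.26, -0.17 and 0.64 in the fed pools, 0.06, 0.16 and 0.49 at 12 h, and 0.02, 0.29 and 0.00 at 24 h. At 72 h its ratios were -1.55, -1.31 and -1.38. The 72 h pools were all below every other pool, while the 12 h and 24 h pools overlapped the fed pools. The difference from fed was -1.66 (SE 0.20, adjusted p = 0.000309), that is 3.16-fold lower, and Col5a3 had the largest fall of all members. For Col1a2, a chain of the abundant collagen I, the brighter of its probes (A_65_P06897) read 0.13, -0.09 and -0.09 in the fed pools and -1.36, -0.86 and -0.82 at 72 h. The ratio fell by 1.00 on the log2 scale (SE 0.26, adjusted p = 0.0264), with the groups apart. The other Col1a2 probe (A_65_P15178) was 0.25 higher at 72 h (adjusted p = 0.587), and the fall of the first lost its call without any one of the fed arrays or of 72 h replicates 1 and 2 (-1.07 to -0.83, adjusted p 0.0523 to 0.145). The other fibrillar chains measured, Col2a1, Col5a1 and Col5a2, lay between -0.34 and 0.22 at 72 h without a call, with 1 of the Col5a1 probes not well above background in Cy3 on any fed array.

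Among the other collagens, Col14a1, a fibril-associated collagen, had fed ratios of -0.04, -0.37 and 0.16 and 72 h ratios of -0.87, -1.02 and -1.30 in its brighter probe (A_65_P12990). The groups did not overlap, and the difference was -0.98 (SE 0.18, adjusted p = 0.00361). The other probe of Col14a1 differed by -0.15 (adjusted p = 0.71). The collagen VI chains Col6a1 and Col6a2, which with Col6a3 form its microfibrils, showed a different time course. Col6a1 read -0.36, -0.50 and -0.75 in the fed pools, 0.03, 0.18 and 1.21 at 12 h, 0.07, 0.37 and 0.39 at 24 h, while the 72 h pools read -0.65, -0.49 and -0.65. Col6a2 read -0.76, -0.88 and -0.45 in the fed pools, 0.16, -0.39 and 1.12 at 12 h, 0.21, 0.09 and 0.39 at 24 h, followed by -1.07, -0.82 and -1.01 at 72 h. Both were above all fed pools at 12 h and 24 h and back among or below them at 72 h. At 12 h Col6a1 was 1.01 higher than in fed (SE 0.25, adjusted p = 0.0224) and Col6a2 0.99 (SE 0.28, adjusted p = 0.0381). The differences at 24 h were 0.81 (adjusted p = 0.0512) and 0.93 (adjusted p = 0.0494). From 24 h to 72 h they fell by 0.87 (adjusted p = 0.0377) and 1.20 (adjusted p = 0.016) on the log2 scale. Without fed replicate 3 the 12 h difference of Col6a1 was 0.91 (adjusted p = 0.0891), and that of Col6a2 lost its call in 10 of the 12 fits that left out an array (0.58 to 1.12). Against the reference instead of the fed pools, Col6a1 was 0.47 (adjusted p = 0.0646) and Col6a2 0.30 (adjusted p = 0.294) at 12 h, and Col6a2 was 0.23 (adjusted p = 0.479) at 24 h. In the Cy3 channel alone Col6a1 was 0.32 at 12 h (adjusted p = 0.271). The 2 probes of Col6a3 were not called at any time and read 0.82 and -0.35 against fed at 72 h. Col9a3, a chain of a cartilage collagen, was lower at 24 h, with 0.60, 0.91 and 0.64 in the fed pools and -0.10, 0.12 and 0.02 at 24 h, a difference of -0.70 (SE 0.16, adjusted p = 0.0167), which lost its call without fed replicate 2 or 24 h replicate 1 (-0.65 to -0.61, adjusted p 0.0658 to 0.0703). In the direct comparison with the reference, which leaves out the fed pools, the 24 h pools of Col9a3 differed by 0.01 (adjusted p = 0.955).

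Of 7 probes of the collagens of basement membranes, 1 fell at 72 h, a probe of Col18a1, whose protein releases the fragment endostatin. It had fed ratios of -0.04, -0.25 and 0.14 and 72 h ratios of -1.05, -0.59 and -0.70, with a difference of -0.73 (SE 0.17, adjusted p = 0.0156). This call was lost without fed replicate 1, fed replicate 3 or 72 h replicate 1 (-0.73 to -0.59, adjusted p 0.0554 to 0.104), and the other, brighter Col18a1 probe read -0.57 (adjusted p = 0.119). The chains of collagen IV that occur in all basement membranes were not called at any time, with differences at 12, 24 and 72 h of 0.40, 0.24 and 0.03 for Col4a1 and of 0.05, 0.01 and -0.23 for Col4a2. The 3 probes of the nidogens, which link laminin to collagen IV, stayed between -0.25 and 0.16.

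Of 9 laminin probes only that of Lamc1, the gamma 1 chain shared by most laminins, was called against fed. Its ratios were -0.28, -0.23 and -0.43 in the fed pools, 0.54, 0.89 and 0.51 at 12 h, 1.55, 0.52 and 0.70 at 24 h, then 0.31, 0.22 and -0.09 at 72 h. All 12 h and 24 h pools were above the fed pools. The ratios differed by 0.96 at 12 h (SE 0.23, adjusted p = 0.0211) and by 1.24 at 24 h (SE 0.23, adjusted p = 0.00695). These sizes are uncertain, since the probe was not well above background in Cy3 on any fed array. The Cy5 signal of the reference was also higher for this probe, by 0.60 at 12 h and 1.78 at 24 h on the log2 scale (adjusted p = 0.0385 and 7.63e-05). The 12 h call was lost without fed replicate 1, fed replicate 3 or 12 h replicate 2 (0.84 to 0.98, adjusted p 0.0583 to 0.0781). Lama1, Lama4, Lama5, Lamb1-1 and Lamb2 lay between -0.48 and 0.47 at all times without a call, with Lama1 not well above background in Cy3 on any fed array.

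Of 18 probes of other matrix glycoproteins, 2 fell and 2 rose at 72 h. Sparc, a collagen-binding matricellular protein, had ratios of 0.15, -0.25 and 0.38 in the fed pools, -0.19, -0.53 and -0.31 at 12 h, and -0.83, -0.30 and -0.33 at 24 h. At 72 h its ratios had reached -1.18, -1.01 and -1.22. The mean was lower at each later time, and the 72 h pools were below all others. The difference was -0.43 at 12 h (adjusted p = 0.155), -0.58 at 24 h (adjusted p = 0.0715) and -1.23 at 72 h (SE 0.19, adjusted p = 0.00153). Fn1, the adhesive glycoprotein fibronectin, was lower at 72 h in its brightest probe (A_65_P16612), with -0.13, -0.41 and 0.20 in the fed pools and -1.01, -0.92 and -0.96 at 72 h. This difference of -0.85 (SE 0.24, adjusted p = 0.0328) lost its call without fed replicate 1, fed replicate 3 or any one of the 72 h arrays (-0.87 to -0.69, adjusted p 0.08 to 0.143). Another Fn1 probe (A_65_P01794) was lower at 12 h and 24 h, by -0.69 at both (SE 0.17, adjusted p = 0.0242 and 0.023), and by -0.33 at 72 h, and the third was not called at any time (-0.36 to -0.07).

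Tnc, the gene of tenascin C, an anti-adhesive matrix protein of remodelling tissue, was the only member called at all 3 times. Its brightest probe (A_65_P14193) had ratios of 0.36, 0.30 and -0.01 in the fed pools, 1.28, 1.18 and 0.82 at 12 h, 0.92, 1.76 and 1.10 at 24 h, while the 72 h pools read 1.06, 1.35 and 1.19. Every fasted pool was above every fed pool. The differences were 0.88, 1.05 and 0.99 (SE 0.21 each, adjusted p = 0.0213, 0.0108 and 0.00862), while the other 2 Tnc probes read -0.37 to 0.35 and were not called. At 12 h the Cy5 signal of the called probe was lower by 0.77 (adjusted p = 0.0134). In the Cy3 channel alone the probe differed by 0.11 at 12 h and was not called. The 12 h call was also lost with loess within arrays, median centring or the authors' value table. With median centring the 24 h and 72 h calls were lost too. Without fed replicate 3 or 12 h replicate 2 the 12 h call was lost as well (0.77 to 0.84, adjusted p 0.0513 to 0.0851). Thbs2, a matricellular thrombospondin, was higher at 72 h in 1 of its 3 probes (A_65_P12731), with 0.38, 0.45 and -0.10 in the fed pools and 0.84, 0.76 and 0.83 at 72 h (difference 0.57, SE 0.17, adjusted p = 0.0442). The Cy3 signal of this probe was 0.34 lower at 72 h and the Cy5 signal of the reference 0.90 lower, so that its direction turned in the Cy3 channel alone. The other probes of Thbs2 were not called, and were not well above background in Cy3 on any fed array. The proteoglycans Bgn and Dcn, which bind collagen fibrils, were not called against fed, at -0.54 and -0.07 at 72 h. Thbs1, Fbln2, Fbn1 and Spp1 lay between -0.58 and 0.55 over the 3 times without a call, with Thbs1 and Fbn1 not well above background in Cy3 on any fed array.

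**Figure D1:**
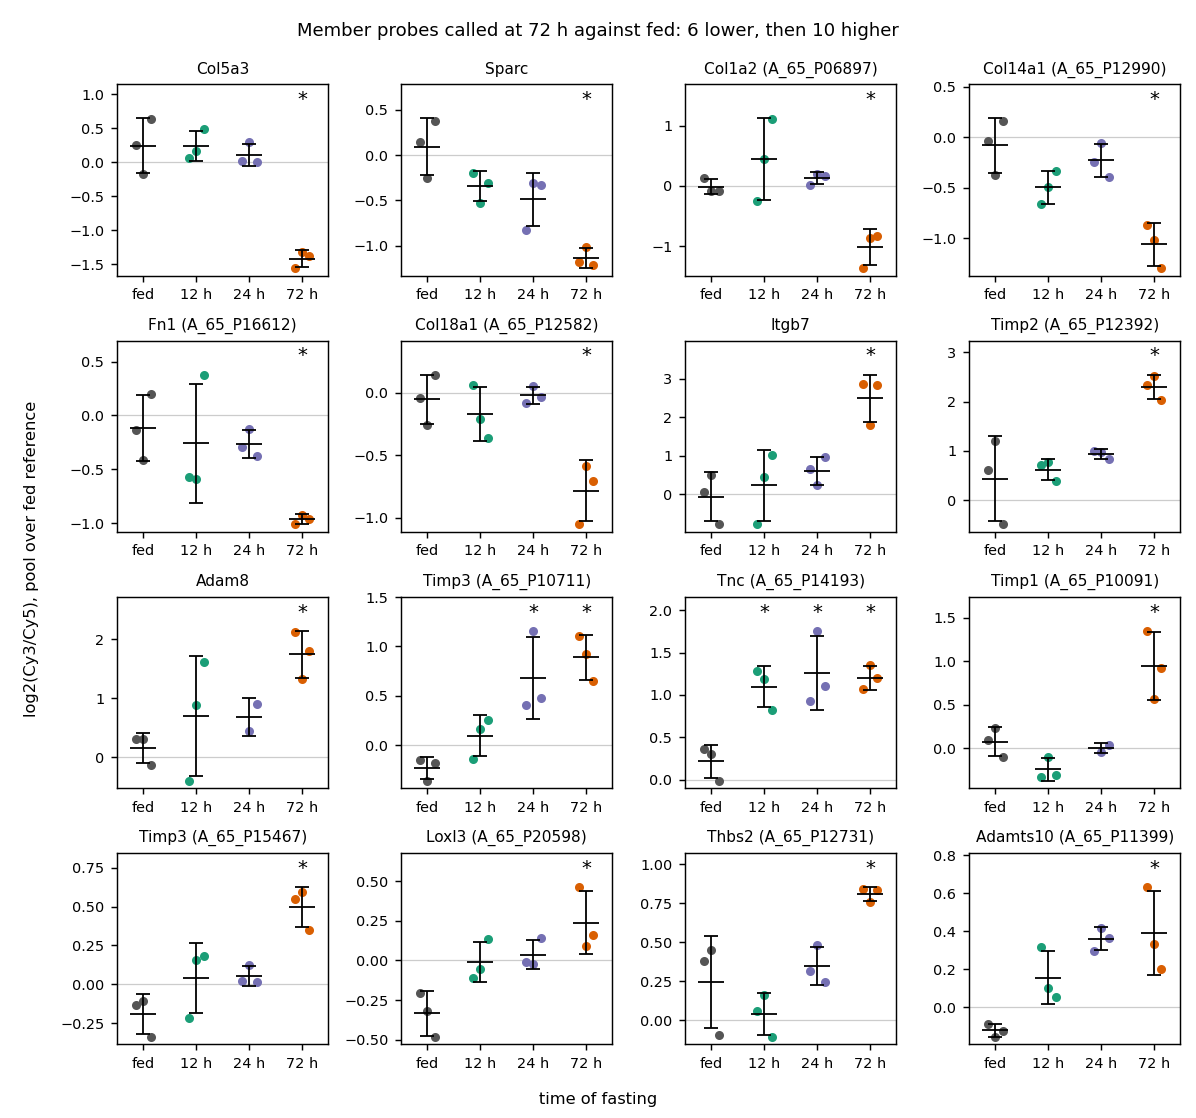
Log2(Cy3/Cy5) of each pool over the fed reference (y axis) against time of fasting (x axis) for the 16 member probes called at 72 h against fed. Points are pools, bars are the mean and SD of up to 3 pools, and a star marks a time called against fed. In all panels the 72 h pools lie outside the range of the fed pools, from -1.66 for Col5a3 to 2.56 for Itgb7 as mean differences.

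Of the 14 integrin probes, 1 rose at 72 h, and it had the largest rise of all members at that time. Itgb7, the beta 7 chain of the integrins that home lymphocytes to the gut and hold them in the epithelium, had ratios of 0.06, 0.51 and -0.76 in the fed pools, -0.78, 0.44 and 1.02 at 12 h, 0.64, 0.23 and 0.96 at 24 h, followed by 2.86, 1.79 and 2.83 at 72 h. The 72 h pools were above all others, which overlapped among themselves. The difference at 72 h was 2.56 (SE 0.42, adjusted p = 0.00185), a 5.89-fold rise, and that from 24 h to 72 h was 1.88 (adjusted p = 0.0132). The probe of its partner chain Itga4 was not called, and was not well above background in Cy3 on any fed array. Leukocyte markers were given beside Itgb7 as a reference. Of the 4 measured of 13 listed, Ptprc was lower (-0.69, adjusted p = 0.0457) and 0 were higher at 72 h, Coro1a, Lcp1 and Cd3e were not called, and their summed Cy3 signal was 2084 to 2173 against 1562 to 2665 in the fed pools. Their part in the rise of Itgb7 was not tested.

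At 12 h and 24 h other integrin chains were called. Itgb5, the beta 5 chain of a vitronectin receptor, had ratios of -0.28, -0.11 and -0.41 in the fed pools, 0.51, 0.70 and 0.92 at 12 h, 0.21, 0.63 and 0.37 at 24 h, then -0.36, 0.34 and 0.06 at 72 h. It was above the fed pools at both early times and overlapped them at 72 h. The differences were 0.98 (SE 0.20, adjusted p = 0.0101) and 0.67 (adjusted p = 0.0441), and the 12 h call of Itgb5 was the only one of the 18 at that time that held in all 12 fits without 1 array. Itga7, a laminin-binding chain of muscle, was higher at 12 h by 0.79 (SE 0.23, adjusted p = 0.0456), a call lost in 10 of the 12 fits without 1 array (0.45 to 0.86, adjusted p 0.0579 to 0.144). Against the reference instead of the fed pools Itga7 was 0.31 (adjusted p = 0.187). One probe of Itgb1 (A_65_P19992), the most widely shared beta chain, was higher at 12 h by 1.31 (SE 0.38, adjusted p = 0.0457) with 2 fed pools measured, and its Cy5 signal was 1.18 lower (adjusted p = 0.00461). The brighter Itgb1 probe read -0.10 (adjusted p = 0.753). Itga9 was lower at 12 h, with ratios of -0.70, -0.09 and -0.16 against 0.46, 0.37 and 0.32 (adjusted p = 0.0233), but was not well above background in Cy3 on any fed array. Itga2 and Itga6 were not called, at -0.12 and -0.18 at 72 h.

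Of the 15 probes named as Timp genes, 4 were called higher and 0 lower at 72 h, with a median of 0.38. This median includes 7 probes named Timp4 that have another name in the fed files, and none of the 4 calls is of a probe named Timp4. Timp2, an inhibitor that also takes part in the activation of Mmp2, had ratios of 0.61, 1.20 and -0.49 in the fed pools and 2.34, 2.53 and 2.04 at 72 h in its brightest probe (A_65_P12392), with no overlap. The difference was 1.87 (SE 0.31, adjusted p = 0.00185), while in the Cy3 channel alone it was 1.17 and not called, and the other Timp2 probes read 0.11 and 0.44 without a call. Timp3, the matrix-bound inhibitor that also acts on Adam17, was the only member gene with several probes in which all were called at 72 h. Its brighter probe (A_65_P10711) had ratios of -0.15, -0.36 and -0.18 in the fed pools, -0.14, 0.16 and 0.26 at 12 h, 0.40, 1.16 and 0.47 at 24 h, while the 72 h pools read 1.10, 0.92 and 0.64. The means lay in the order of time, and all 24 h and 72 h pools were above the fed pools. The differences were 0.91 at 24 h (SE 0.21, adjusted p = 0.0167) and 1.12 at 72 h (SE 0.21, adjusted p = 0.00361). Its other probe (A_65_P15467) read -0.13, -0.10 and -0.34 in the fed pools and 0.55, 0.59 and 0.35 at 72 h, a difference of 0.69 (SE 0.16, adjusted p = 0.0124), which lost its call without fed replicate 3 or 72 h replicate 1 or 2 (0.61 to 0.66, adjusted p 0.0542 to 0.0637). At 24 h the Cy3 signal of the brighter probe differed by 0.09 (adjusted p = 0.74) and the Cy5 signal of the reference by -0.81 (adjusted p = 0.0128), and at 72 h by 1.16 and 0.05. The 72 h call of the other probe was lost in the Cy3 channel alone (0.43, adjusted p = 0.121). The 24 h call of the brighter probe was lost without fed replicate 1, fed replicate 2 or 24 h replicate 2 (0.67 to 0.95, adjusted p 0.0517 to 0.0596).

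Timp1 and Timp4 rest on less certain probes. A probe named Timp1 (A_65_P10091), which the files describe by a human sequence, had fed ratios of 0.09, 0.23 and -0.10 and 72 h ratios of 1.35, 0.57 and 0.92. It was higher by 0.87 (SE 0.19, adjusted p = 0.0115), and lost the call without fed replicate 3 or 72 h replicate 1 (0.79, adjusted p = 0.0571, and 0.67, adjusted p = 0.0705). The call was also lost with median centring and in the Cy3 channel alone. The probe for mouse Timp1 read 0.12 (adjusted p = 0.745). Of the 8 probes named Timp4 in the 12 h files, 7 carry another name in the fed files. The probe that is Timp4 in both (A_65_P07512) read -0.10, 0.00 and 0.12 in the fed pools, 0.88, 1.06 and 0.08 at 12 h, 2.15, 0.89 and 0.74 at 24 h, followed by 1.05, 0.50 and 0.68 at 72 h. Its difference was 1.25 at 24 h (SE 0.32, adjusted p = 0.0272) and 0.73 at 72 h (adjusted p = 0.171), and at 24 h it lost its call without any one of the fed arrays or 24 h replicate 1 (0.81 to 1.31, adjusted p 0.0645 to 0.0989). Of the other 7 probes, 2 (A_65_P14989 and A_65_P11295) were called higher at 12 h and 24 h, by 0.66 to 0.83. The rest were not called against fed, and the probes named Timp4 disagreed in direction at a time with a call.

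Of the 8 probes of matrix metalloproteases, none was called at 24 h or 72 h. Mmp7, the matrilysin of Paneth cells, was called higher at 12 h, with ratios of 0.52, -0.46 and -2.05 in the fed pools and 0.83, 0.52 and 2.71 at 12 h. The lowest fed pool and the highest 12 h pool lay far from the others. The difference was 2.02 (SE 0.57, adjusted p = 0.0412), and it was 1.34 (adjusted p = 0.11) without 12 h replicate 3 and 1.32 (adjusted p = 0.157) without fed replicate 3. Mmp2, Mmp9 and Mmp14, a pair of gelatinases and the membrane-bound activator of Mmp2, read 0.25, 0.33 and -0.10 at 72 h without a call. The probe named Mmp24, which has another name in the fed files, was lower at 12 h by -0.86 (SE 0.21, adjusted p = 0.0225).

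Among the 9 Adam and 7 Adamts probes, Adam8, a surface protease known from leukocytes, was higher at 72 h. Its ratios were 0.30, 0.30 and -0.14 in the fed pools, -0.40, 0.89 and 1.61 at 12 h, 0.45 and 0.91 in the 2 pools measured at 24 h, and 2.12, 1.32 and 1.80 at 72 h. The difference of 1.59 (SE 0.38, adjusted p = 0.0182) was lost without fed replicate 3 or 72 h replicate 1 or 3 (1.41 to 1.56, adjusted p 0.0584 to 0.102). Adam17, the sheddase of tumour necrosis factor, had ratios of -0.01, -0.12 and -0.55 in the fed pools, 0.46, 0.41 and 0.51 at 12 h, -0.68, -0.52 and -0.67 at 24 h, then -0.36, -0.30 and 0.02 at 72 h in its brighter probe (A_65_P20688). It was higher at 12 h by 0.68 (SE 0.17, adjusted p = 0.0236), but by 0.52 (adjusted p = 0.0889) without fed replicate 3, and the other probe read -0.01. Of the Adam15 probes, 1 (A_65_P04601) was lower at 12 h, not well above background in Cy3 on any fed array (adjusted p = 0.0226), and the other read 0.14. Adamts1 was not called, and its probe was not well above background in Cy3 on any fed array. A probe of human sequence named Adamts10 (A_65_P11399) was higher at 72 h by 0.51 (SE 0.15, adjusted p = 0.0464), and the other Adamts10 probe read 0.31 (adjusted p = 0.54).

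Of 6 lysyl oxidase probes, 1 was called against fed at each time. A probe of Loxl3 (A_65_P20598) was higher at 72 h by 0.57 (adjusted p = 0.0308), a size that is uncertain, as it was not well above background in Cy3 on any fed array. In the direct comparison with the reference it was 0.24 and not called. The other Loxl3 probe (A_65_P03359) was lower at 12 h by -0.56 (SE 0.17, adjusted p = 0.045), in the opposite direction, and was 0.27 higher there in the Cy3 channel alone. Loxl4 was lower at 24 h by -0.54 (SE 0.15, adjusted p = 0.0335). The probes of Lox itself were not called against fed. The one read -0.07 at 72 h, and the other (A_65_P11734) was not well above background in Cy3 on any fed array.

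**Figure D2:**
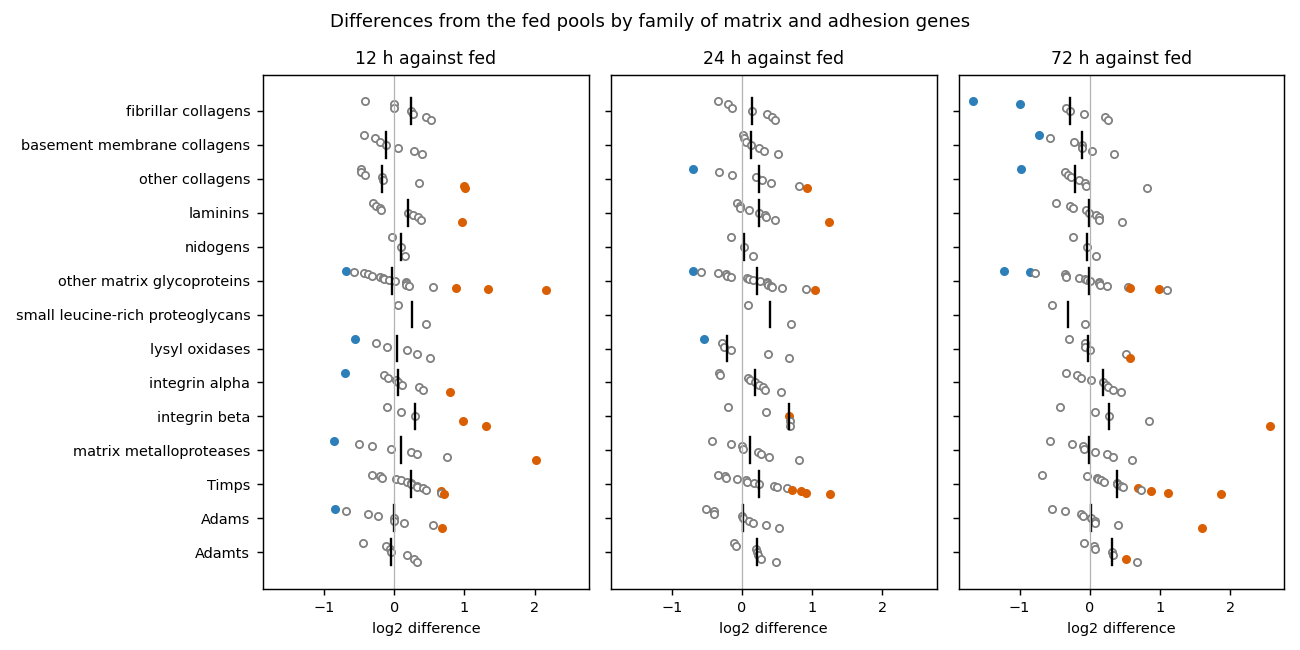
Difference of the mean log2(Cy3/Cy5) from the fed pools (x axis) for each member probe at 12, 24 and 72 h, by family (y axis). Each point is a probe, filled orange where called higher and blue where called lower, open where not called, and the black line is the family's median. At 72 h called collagen probes lie to the left of zero and called Timp probes to the right. The 2 names below, which belong to no matrix family, are not drawn.

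At 12 h, 18 member probes (15.7%) were called, against 10.8% of all probes. Of these 13 were higher (4.82% of all probes were) and 5 lower (6.00% of all probes were), and the median difference was 0.09 against -0.02 over all probes. The split was 4 higher and 3 lower with each array centred on its median, 4 and 4 in the authors' value table, and 8 and 10 in the Cy3 channel alone. In 5 of the 18 the Cy5 signal was called as well, in a channel where 21.7% of all probes were called. The largest rise was that of Tnxb, the gene of tenascin X, which has a role in collagen fibril spacing, with ratios of -0.72, -0.66 and -1.87 in the fed pools and -0.17 and 2.33 in the 2 pools measured at 12 h. Its groups did not overlap, and the difference of 2.16 (SE 0.55, adjusted p = 0.0297) was 0.91 (adjusted p = 0.162) without 12 h replicate 3. At 72 h Tnxb was not called and lay below fed, by -1.18 to -0.57 in the fits without 1 fed array (adjusted p 0.239 to 0.619). Fbln1, an elastic fibre and basement membrane protein, read 0.11 and -1.47 in 2 fed pools and 0.13, 0.55 and 1.28 at 12 h (difference 1.33, SE 0.38, adjusted p = 0.0426). At 72 h Fbln1 also lay above fed, by 1.10 without a call. This difference was 0.31 without fed replicate 3 and 1.88 without fed replicate 2. Without 12 h replicate 3 or fed replicate 3, Tnxb, Fbln1, Mmp7 and the called Itgb1 probe all lost their calls. The number of member probes called was 7 without 12 h replicate 3, 1 without fed replicate 3, 6 without fed replicate 1, 10 without fed replicate 2, 11 without 72 h replicate 1 or 2 and 30 without 12 h replicate 1. None of the 18 calls was kept under all 11 other settings.

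Most markers of smooth muscle were also higher at 12 h. Of 7 measured of 8 listed, 5 were called higher at 12 h, 3 at 24 h and 2 at 72 h. At 12 h Myh11 (0.39) and Cnn1 (-0.10) were not called. A dimmer second probe of Mylk read -0.36 at 12 h and -0.51 at 24 h, also without a call. For Acta2, the smooth muscle actin, the ratios were -0.15, -0.74 and -2.05 in the fed pools and 0.35 and 2.41 in the 12 h pools measured. Fed replicate 3 was thus the lowest and 12 h replicate 3 the highest, as for Mmp7, Tnxb and Fbln1. The enterocyte peptidase Anpep showed the same 2 pools at -2.88 and 4.52. For the smooth muscle marker Des, 12 h replicate 3 was instead the lowest 12 h pool, at 0.91 against 1.88 and 2.35. The summed Cy3 signal of the smooth muscle markers ranged from 4923 to 6129 in the fed pools, 5419 to 7798 at 12 h, 5774 to 7511 at 24 h and 7021 to 7766 at 72 h, and each was well above background on at least 1 fed array. These sums lack Acta2 in 12 h replicate 1 and Mylk in fed replicate 1, whose spots carried outlier flags. Their part in the rises of the member probes was not tested. Markers of fibroblasts, which make most of the fibrillar collagen, had a summed signal of 988 to 1399 in the fed pools, 1360 to 1629 at 12 h, 865 to 1020 at 24 h and 836 to 980 at 72 h. For these markers, 1 of the 4 measured of 6 listed, Cd34, was called lower at 72 h (-0.80, adjusted p = 0.0289). Vim (-0.59), Pdgfra (-0.39) and Pdgfrb (0.15) were not called at 72 h, and the 72 h pools of Pdgfrb lay above the fed pools. The part of the fibroblast markers in the falls of Col5a3, Col1a2 and Sparc was not tested.

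**Figure D3:**
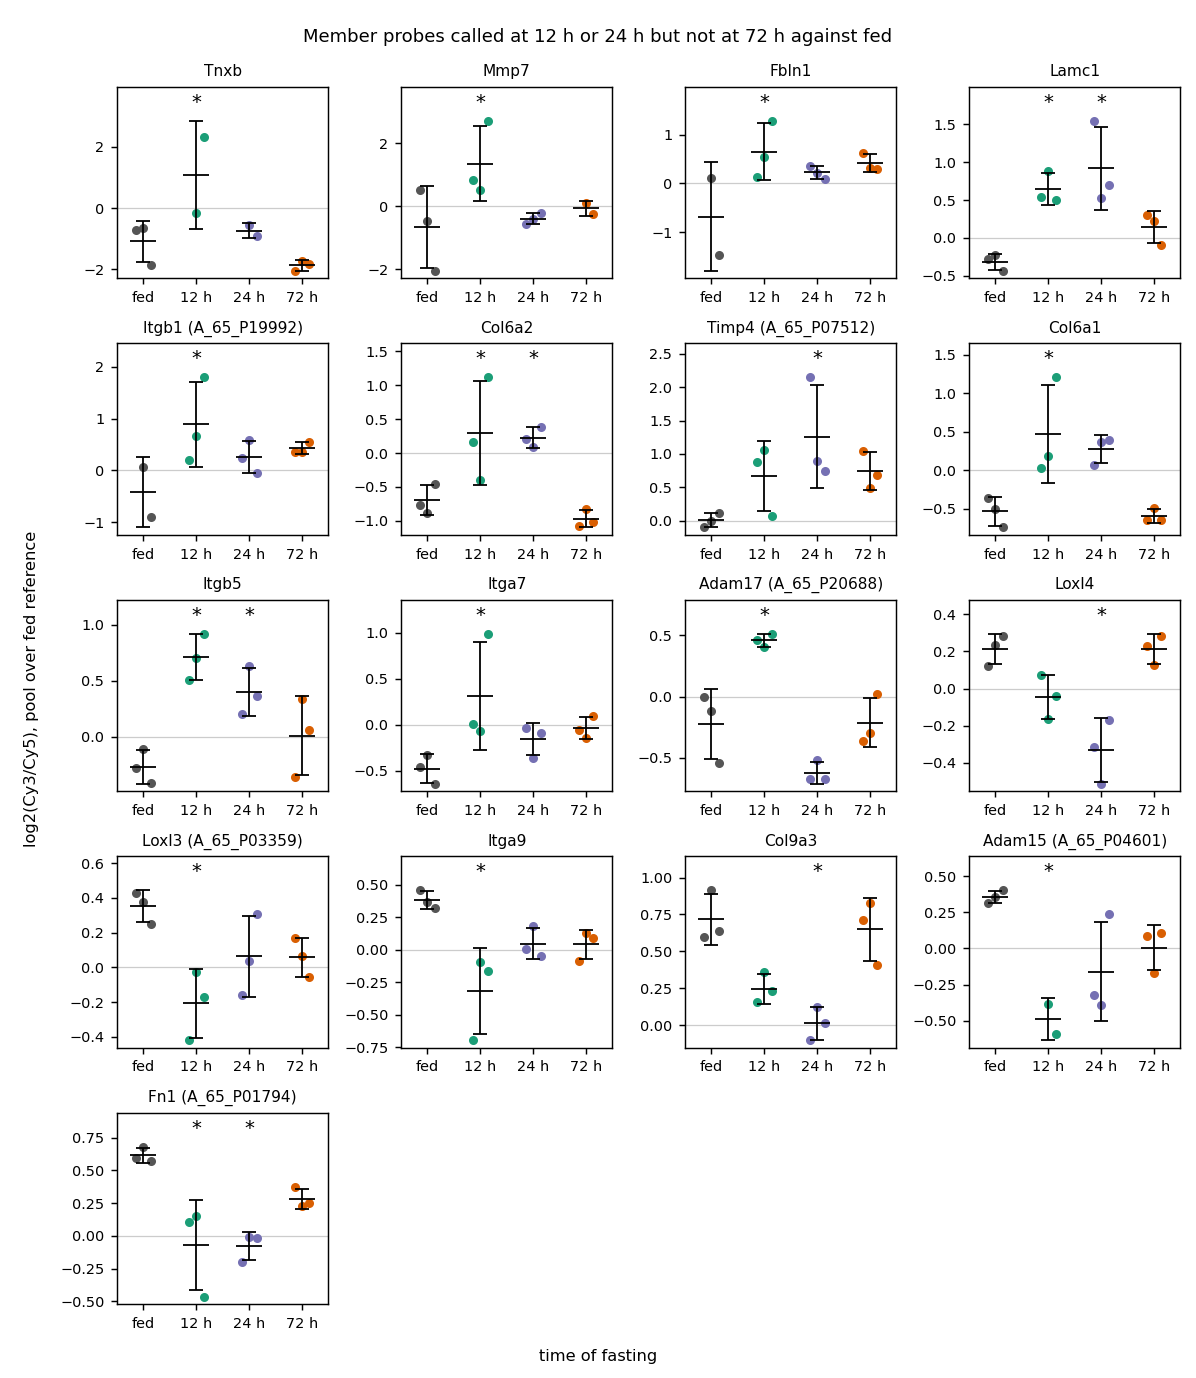
Log2(Cy3/Cy5) of each pool (y axis) against time of fasting (x axis) for the 17 member probes called at 12 h or 24 h but not at 72 h against fed, without 3 probes that have another name in the fed files. Points are pools, bars are the mean and SD of up to 3 pools, and a star marks a time called against fed. Tnxb, Mmp7 and Fbln1 have their highest 12 h pool and their lowest fed pool in replicate 3, at 2.33 and -1.87 for Tnxb.

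At 24 h, 11 member probes (9.57%) were called, against 10.1% of all probes. Of these 8 were higher (3.82% of all probes were) and 3 lower (6.30% of all probes were), with a median of 0.16 against 0.02 over all probes. The 8 were probes of Lamc1, Timp4 (3 of that name), Tnc, Col6a2, Timp3 and Itgb5, and the 3 were of Col9a3, Fn1 and Loxl4. In 4 of the 11 the Cy5 signal was called as well, in a channel where 20.6% of all probes were called. Of the 11 calls, 3 were kept under all 11 other settings. The count was 3 without fed replicate 1, fed replicate 2 or 24 h replicate 1, 5 without fed replicate 3, 6 without 24 h replicate 2 and 19 without 12 h replicate 3.

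Between successive times, 1 member probe (0.87%) differed between 24 h and 12 h, against 2.90% of all probes (1.23% higher and 1.67% lower). This was Adam17, which fell by 1.08 (SE 0.17, adjusted p = 0.00486) on the log2 scale, with the groups apart. Its Cy5 signal was higher at 24 h than in fed by 1.00 (adjusted p = 0.00309), and in the Cy3 channel alone Adam17 was 0.12 higher at 24 h than at 12 h. Between 72 h and 24 h, which lie in different formats, 17 member probes (14.8%) differed, against 10.5% of all probes. Of these 6 were higher (5.88% of all probes were) and 11 lower (4.67% of all probes were). The 11 included 6 collagen probes, of Col5a3 (-1.52), Col6a2 (-1.20), Col1a2 (-1.14), Col6a1 (-0.87), Col14a1 (-0.83) and Col18a1 (-0.76), together with Bgn, Sparc, Lamc1, Lama5 and a probe named Timp4. Bgn had ratios of 0.49, 0.82 and 0.32 at 24 h and -1.42, -0.24 and -0.45 at 72 h (difference -1.25, SE 0.27, adjusted p = 0.0118). The count was 2 without 72 h replicate 1, 9 without 72 h replicate 2, 7 without 72 h replicate 3, 10, 6 and 7 without 24 h replicates 1, 2 and 3, and 31 without 12 h replicate 3. Over the 3 comparisons with fed together, the moderated F-test called 32 member probes (27.8%), against 24.8% of all probes.

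The count at 72 h was 10 without fed replicate 1, 8 without fed replicate 3, 7 without 72 h replicate 1 and 29 without 12 h replicate 3. Of the 16 probes called, 7 kept their call in all 12 fits that left out an array, namely those of Col5a3, Sparc, Col14a1, Itgb7, Timp2, Tnc and the brighter probe of Timp3. Of the 16, 6 kept their call under all 11 other settings, and those lost in the Cy3 channel alone included the probes of Col14a1 (-0.71) and Fn1 (-0.73). All calls of member probes against fed had pools that did not overlap between the groups. Non-overlap was also seen in member probes without a call, so it lends a call no further support. Of the 115 member probes, 79 were not called at any time against fed, 28 were called at 1 time, 7 at 2 times and 1 at all 3. This split was not made over all probes, so it cannot be set against them. Of all probes, 10.8% were called at 12 h, 10.1% at 24 h and 10.6% at 72 h. Among the 79 member probes were those of Col4a3bp and Itgb4bp, which the name pattern takes although they encode a lipid transfer protein and a translation factor.

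Many called members had another probe of the gene that was not called. Such differences stood for Tnc, Timp1, Timp2, Timp4, Col1a2, Col14a1, Col18a1, Fn1, Thbs2, Itgb1, Adam15, Adam17, Adamts10 and Loxl3, and the 2 Timp3 probes were called alike at 72 h. Probes of a gene can read different transcripts, and neither their transcripts nor their sequences were used here.

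**Figure D4:**
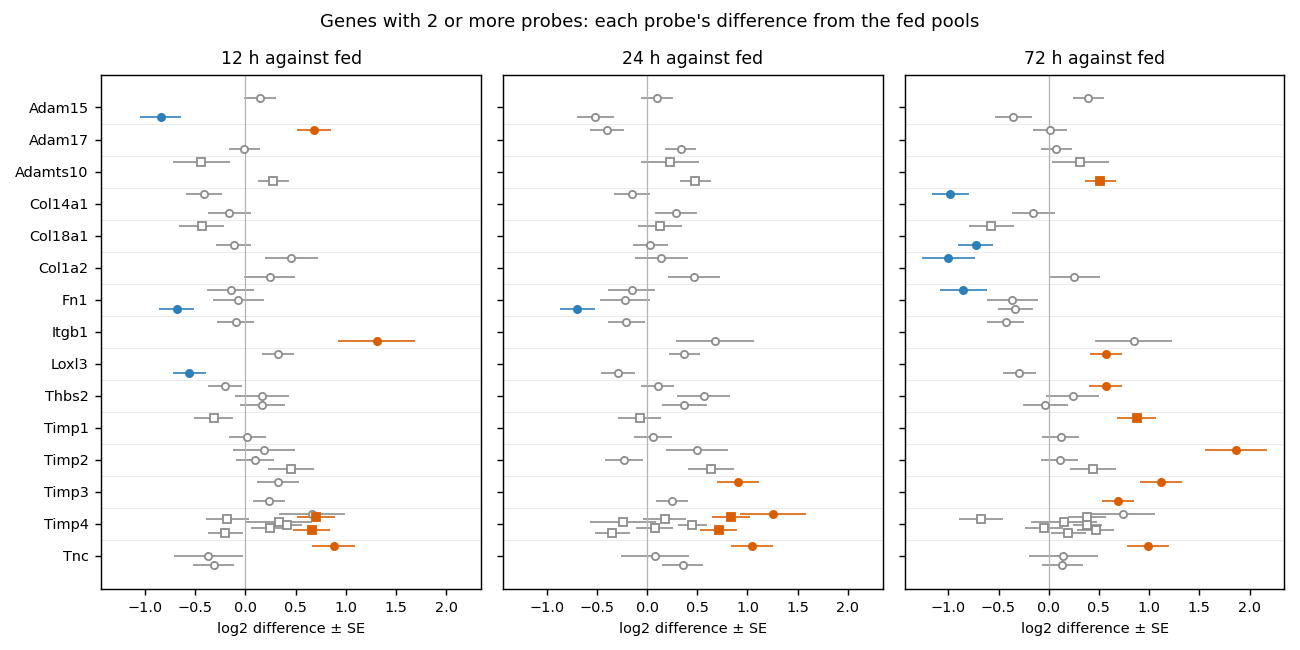
Difference from the fed pools (x axis, log2, with SE as bars) of every probe of the member genes that have 2 or more probes and at least 1 call (y axis), at 12, 24 and 72 h. Orange points were called higher, blue points lower, open grey points were not called, and squares are probes with another name or a human sequence in the fed files. The 2 Timp3 probes lie at 1.12 and 0.69 at 72 h, while those of Timp2 lie at 1.87, 0.44 and 0.11.

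Other genes of the same pathways were taken from lists of such genes, and no list was tested as a set. Over all probes, 4.82% were called higher and 6.00% lower at 12 h. These shares were 3.82% and 6.30% at 24 h, and 4.85% and 5.71% at 72 h. Of 9 collagen processing genes measured of 11 listed, 1 rose and 1 fell at 72 h. Bmp1, the protease that trims procollagen, read 0.09, 0.05 and -0.27 in the fed pools and 1.52, 0.74 and 1.08 at 72 h (1.15, SE 0.20, adjusted p = 0.00223). The dimmer Bmp1 probes differed by 0.88 and 0.08 at 72 h without a call. Ppib, a prolyl isomerase of collagen folding, was lower by -0.89 (SE 0.16, adjusted p = 0.00323), and by -0.60 at 24 h (adjusted p = 0.0316). Plod3 was higher at 12 h (0.67, adjusted p = 0.0396) and 24 h (1.10, adjusted p = 0.00444), and read 0.07 at 72 h without a call. Of 14 other matrix genes of 25 listed, 3 rose and 0 fell at 72 h, which were Eln, elastin (1.78, SE 0.31, adjusted p = 0.00255), Hspg2, perlecan (1.06, adjusted p = 0.0332), and Ecm1 (0.74, adjusted p = 0.0145). At 12 h 3 of these genes rose as well, Ecm1 (1.25, adjusted p = 0.0022), Hspg2 (1.13, adjusted p = 0.0285) and Prelp (0.97, adjusted p = 0.024). The rises of Hspg2 rest on the fed pools measured for it, replicates 1 and 3, which lay apart at -0.05 and -0.97. The dimmer Prelp probe read -0.12 at 12 h without a call.

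Of 16 receptor and focal adhesion genes of 22 listed, 1 rose at 72 h, Dag1, the laminin receptor dystroglycan, with -0.06, 0.06 and 0.34 in the fed pools and 2.24, 1.19 and 2.01 at 72 h (1.70, SE 0.26, adjusted p = 0.00138). At 12 h and 24 h 2 of them rose, Tln (1.14 and 1.17) and Zyx (0.78 and 1.08), which encode the focal adhesion proteins talin and zyxin. Of 7 genes of the TGF-beta pathway, a main inducer of collagen genes, of 18 listed, none was called at 72 h, and Tgfbr2 was higher at 12 h (1.28, adjusted p = 0.0278) and 24 h (1.31, adjusted p = 0.0167). The 12 h pools measured for Tgfbr2, replicates 2 and 3, read 0.35 and 1.33. A dimmer Tgfbr2 probe read -0.45 at 12 h and -0.18 at 24 h without a call, and was not well above background in Cy3 on any fed array. Tgfb3 was higher at 12 h (0.83, adjusted p = 0.0322), with its probe not well above background in Cy3 on any fed array, and Ltbp1, which binds the latent factor, was lower at 24 h (-0.66, adjusted p = 0.048). Of 9 genes of the plasminogen system and other matrix proteases of 14 listed, Mep1a, a brush border metalloprotease, rose at 72 h (0.85, adjusted p = 0.0201) and Ctsb, the lysosomal cathepsin B, fell (-1.29, SE 0.18, adjusted p = 0.000906). The 72 h pools measured for Mep1a, replicates 2 and 3, read 0.89 and 0.59. Mep1a also rose at 12 h (0.66, adjusted p = 0.0409), and Plg fell at 24 h (-0.48, adjusted p = 0.0431). The dimmer Ctsb probes read 0.16 and -0.21 at 72 h without a call.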

How the data were processed

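The authors deposited scanner output with the median intensity of foreground and background per spot and channel, neither corrected nor normalized. The deposited value table holds the log10 of Cy3 over Cy5 and equals the scanner's own ratio with the sign turned in 100% of cells. Decimal points had moved in 32978 cells of the mean signals and 1911 ratio cells. These were set back, except 89 of the ratio cells, which were left out. Medians were background-corrected by the normexp method with an offset of 50 and log2 signals quantile normalized jointly over the 24 channels. Of 21446 spots, 1075 controls and 91 retired spots were dropped, as were spots with outlier flags. Log2(Cy3/Cy5) was fitted with limma 3.58.1 in R 4.3.3 over all 12 arrays, in place of the authors' Split-Factor analysis of variance, and Cy5 alone as a negative control. The fit was tested on simulated data. Nothing in the labels says that the pools are independent beyond holding different mice, so p-values measure the spread between pools, and the number of arrays limits their precision.

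For dim probes, not well above background in Cy3 on any array of a time point, the call of the ratio fit is given, and the size of a difference is uncertain. Probes carry the names of the 12 h files. The fed files give 16 member probes another name, and 2 member probes were designed on human sequences. Current symbols came from RefSeq (GRCm38.p6) for 111 of the 115 probes by gene number, and 52 of 76 current symbols had a promoter there. Pathway lists and markers hold a gene through its brightest probe. Named are, per time point, the 10 largest rises and falls among the called members, 1 probe each of a list of matrix genes whatever its call (a gene's value is that of its brightest probe) and the probes of genes whose probes disagree in direction at a call. Of these last genes, Timp4 and Thbs2 have probes that are not given with values. The members and lists were chosen with earlier results of these data known. Python 3.11.15 with matplotlib 3.10.9 drew the figures. Alternatives covered background, normalization, signal column, channel, value table, dim probes, arrays in the fit, replicate block, array weights and left-out arrays.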

Additional observations from a re-analysis of the deposited data

Results flagged for a closer look

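The following member probes differed between 2 fasting times in the limma fit (tests of successive times, adjusted over all probes by the Benjamini-Hochberg method, values as log2 differences, later minus earlier). Between 24 h and 12 h this was Adam17 (-1.08), which turned in the Cy3 channel alone. Between 72 h and 24 h the collagen probes of Col5a3 (-1.52), Col6a2 (-1.20), Col1a2 (-1.14), Col6a1 (-0.87), Col14a1 (-0.83) and Col18a1 (-0.76) were lower at 72 h. Also lower were Bgn (-1.25), a probe named Timp4 (A_65_P09613, -0.85), Lamc1 (-0.78), Sparc (-0.65) and Lama5 (A_65_P04609, -0.62, adjusted p = 0.049992). Higher at 72 h than at 24 h were Itgb7 (1.88), Timp2 (1.37), the human-sequence Timp1 probe (0.95), Lox (A_65_P11734, 0.68), Col9a3 (0.64) and Loxl4 (0.54). The 24 h and 72 h arrays differ in file format, which cannot be told apart from time, and of the 17 calls between them that of Col5a3 was the only one kept in all 12 fits without 1 array. With 3 pools per time point, single pools that lie apart were not tested.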

How the results depend on the processing

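Among member probes at 12 h against fed, 18 were called, but 7 (4 higher, 3 lower, 3 of them among the 18) with median centring, 4 without background correction, 8 (4 and 4) with the authors' value table, 0 with only the fed and 12 h arrays (limma, with 24 at an unadjusted p under 0.05), 33 with array weights, whose estimation stopped before convergence, and 1 to 30 without 1 array. In the Cy3 channel alone the split was 8 higher and 10 lower. At 24 h the 11 became 20 with loess within arrays, 25 in the Cy3 channel alone, 21 with the value table, 18 with only the fed and 24 h arrays, 32 with array weights and 3 to 19 without 1 array. At 72 h the 16 became 26 with only the fed and 72 h arrays, 31 in a direct comparison with the reference, 44 with array weights and 7 to 29 without 1 array. For 24 h against 12 h the 1, Adam17, became 9 others in the Cy3 channel alone (8 higher and 1 lower), 3 with array weights and 1 to 4 without 1 array. For 72 h against 24 h the 17 became 8 with median centring, 36 with array weights and 2 to 31 without 1 array. The F-test over the 3 comparisons called 71 with array weights and 19 to 49 without 1 array. The direction turned for Loxl3 (A_65_P03359) at 12 h (0.27), Thbs2 (A_65_P12731) at 72 h (-0.34) and Adam17 between 24 h and 12 h (0.12), all in the Cy3 channel alone, and for Col9a3 at 24 h (0.0127) in the direct comparison with the reference. The cause of these changes was not tested. Restricting members to names that the fed files bear out, a choice made after seeing the data, left 15, 9 and 16 calls at 12, 24 and 72 h. Calls kept under every setting and every left-out array were 0 at 12 h, 1 at 24 h (Lamc1) and 4 at 72 h (Col5a3, Sparc, Itgb7 and the brighter Timp3 probe). A slide or scan date block was not run because the files used here give neither.

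With the pool number as a replicate block, 9 member probes were called at 12 h (6 higher, 3 lower), all among the 18, and at 72 h 13 of the 16 kept their call. The pools share only a number: over 18 pairs of pools with the same number and different times, the correlation of deviations from the group means was -0.29 to 0.13, and 2 of them were over 0.1.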

Other observations

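Other probes carry a member's name only in the fed files and were outside the name rule. Of 7 such probes, 2 were called against fed, both at 24 h. A probe named Mmp14 in the fed files (A_65_P08843) read -0.25, -0.36 and -0.14 in the fed pools and 0.21, 0.53 and 0.32 at 24 h, a difference of 0.61 (SE 0.15, limma adjusted p = 0.0199), while the member probe of Mmp14 differed by 0.0049. A probe named Lamc1 in the fed files (A_65_P04394), well above background on 1 fed array, was lower at 24 h by -0.76 (SE 0.19, adjusted p = 0.0249), while the member probe of Lamc1 was higher at that time. Which of the names is right was not tested.

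Marker lists not named beside a result gave these values. Of the 3 endothelial genes measured of 8 listed, 0 were called against fed at any time. Of the 4 enterocyte genes measured of 10 listed, Anpep (3.44) and Cdh1 (1.43) were higher at 12 h and 0 were called at 24 h or 72 h. The 1 exocrine pancreas gene measured of 8 listed, Cpa1, was not called. Lists of adipose and erythroid markers had 0 genes measured under the names used.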
